A study of Mus musculus and Homo sapiens with 34 samples.

Results

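The 34 DNA replication genes described here encode proteins that license replication origins, open and copy the double helix, join the new strands and supply nucleotides. They were chosen by name and not by a rule on measured values, but earlier results of these data were known. All 34 were found, ignoring the case of the symbol, among 55450 genes in the mouse count table and 58870 genes in the human one. Polyadenylated RNA had been sequenced from spheroids of 3 colorectal carcinoma lines, CT26 and MC38 from mouse and HT29 from human. Every group was grown in RPMI medium with serum in ultra-low attachment plates and collected at day 7, with 10 spheroids combined per tube. One culture of each line held cells alone, and the other, called MatriSphere in the labels, also held SIS ECM, a decellularized extracellular matrix. No gene edit or drug is given for any group. CT26 and HT29 had 6 libraries per culture. MC38 had 5 per culture, numbered 1 to 5 for cells alone and 1, 3, 4, 5 and 6 for SIS ECM. Each line stands for itself and not for colorectal carcinoma in general. Whether the replicate libraries were grown separately is not stated in the labels, and the p-values therefore refer to library-to-library spread, part of which may be technical. Mouse libraries were also compared by their label number, 1 to 3 against 4 to 6, a split chosen with earlier results known. The labels do not explain the numbers.

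Before S phase, the origin recognition complex, CDC6 and CDT1 load the MCM2-7 helicase onto DNA in an inactive form. At the onset of S phase, MCM10, CDC45 and the GINS complex turn it into a moving helicase, RPA coats the exposed strands, and polymerase alpha with primase starts each new strand. The RFC clamp loader then places the PCNA ring, which tethers polymerases delta and epsilon to DNA, while FEN1 and LIG1 finish the lagging strand and ribonucleotide reductase and thymidylate synthase supply building blocks. Many of these genes are targets of the E2F transcription factors and are transcribed mostly in proliferating cells. In bulk RNA, a change in the share of cells in S phase and a change in RNA per cell cannot be told apart.

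Each mouse library held between 15826162 and 24196095 counts, and each human library between 25515238 and 37001503. The 34 genes together took 0.256 to 0.295% of counts in mouse libraries and 0.282 to 0.308% in HT29. Levels are CPM, counts scaled to a common library total, with TMM factors that correct for library composition. The labelled epithelial origin was visible in HT29, where 9 colorectal epithelial markers summed to between 8470 and 10560 CPM. They summed to 45.6 to 84.9 CPM in CT26 and 0.264 to 1.38 CPM in MC38, and Epcam was at 0 in every library of both. The 9 fibroblast markers summed to 439 to 764 CPM in CT26, 2681 to 4563 CPM in MC38 and 0.669 to 1.62 CPM in HT29. Of the leukocyte markers, Cd3e was at 0 in every mouse library, and Ptprc, found on nearly all leukocytes, averaged 0.0838 CPM in CT26, 0.0179 in MC38 and 0.0164 in HT29 in cells alone. Other markers on these lists were higher. LYZ averaged 1936 ± 63.5 CPM in HT29 cells alone and 1839 ± 130.3 CPM with SIS ECM, and Cd14 averaged 10.38 ± 0.921 and 15.01 ± 1.88 CPM in CT26 (SD, n = 6 each). The endothelial marker Pecam1 averaged 4.21 ± 0.693 and 2.65 ± 0.962 CPM in MC38 (n = 5 each), where Kdr and Cldn5 were at 0. In the mouse lines the mitochondrially encoded share of counts moved with the label number: it was 4.41 ± 0.598% (SD, n = 6) in CT26 libraries 1 to 3 and 8.07 ± 0.361% (n = 6) in libraries 4 to 6, and 4.15 ± 0.724% (n = 5) and 6.28 ± 0.599% (n = 5) in MC38. In HT29 it was 6.13 ± 0.609% and 6.29 ± 0.587% in the same number ranges (n = 6 each).

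All 34 genes passed the filter on low counts in every line. Per kilobase of the longest coding transcript, the scale on which genes can be compared, Pcna was the most abundant of the 34 in mouse spheroids of cells alone, at 257 CPM per kilobase in CT26 and 179 in MC38. In CT26 it was followed by Rpa3, the smallest subunit of RPA, at 108, and by Rrm1, the large subunit of ribonucleotide reductase, at 92.4. In MC38 the next were Rrm1 at 65.0 and Rfc3, a clamp loader subunit, at 53.5. The lowest were Orc1, the largest subunit of the origin recognition complex, at 3.31 in CT26, and Gins2, a subunit of GINS, at 4.65 in MC38. Which transcript of a gene was expressed was not examined, and the order depends on the transcript chosen. Lengths were taken for mouse only, so HT29 levels are compared only within a gene.

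Promoters of 28 of the 34 mouse genes were found in the RefSeq promoter table of GRCm38.p6; Mcm4, Gins1, Gins2, Gins4, Pole and Rfc2 were not matched. The 250 bases before each start were searched on both strands for 4 spellings of the E2F site, TTTCCCGC, TTTCGCGC, TTTGCCGC and TTTGGCGC, and for CCAAT, the word read by the factor NF-Y. An E2F spelling stood in 8 of the 32 member entries, those of Cdc6, Gins3, Mcm5, Mcm6, Mcm7, Orc1, Pola1 and Rfc3, and in 611 (1.86%) of 32851 entries in the whole table. CCAAT stood in 65.6% of member entries and in 33.8% of all entries. These are letter matches and not measured binding. The 150 bases before the start are shown for 3 genes named below, 5′ to 3′ on the gene's strand, with capitals on the matched words. All 3 genes are on the minus strand, and each stretch lies outside the annotated bounds of its own gene. Overlap with other genes was not examined. The stretches are at chr1:128359706-128359855 for Mcm6, a helicase subunit, at chrX:93632156-93632305 for Pola1, the catalytic subunit of polymerase alpha, and at chr2:5012792-5012941 for Mcm10.
Mcm6: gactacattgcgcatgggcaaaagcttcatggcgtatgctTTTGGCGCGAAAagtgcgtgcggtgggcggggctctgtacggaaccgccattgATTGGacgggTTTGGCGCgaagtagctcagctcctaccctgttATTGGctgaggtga
Pola1: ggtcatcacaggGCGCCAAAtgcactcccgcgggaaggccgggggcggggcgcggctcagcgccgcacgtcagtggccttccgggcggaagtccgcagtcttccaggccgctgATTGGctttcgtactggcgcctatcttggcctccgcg
Mcm10: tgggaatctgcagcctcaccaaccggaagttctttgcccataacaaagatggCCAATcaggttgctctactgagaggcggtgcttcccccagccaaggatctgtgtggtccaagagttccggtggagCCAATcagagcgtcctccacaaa
The Mcm6 window held 3 E2F matches, a pair of them overlapping on opposite strands, and 2 CCAAT matches. The Pola1 window held 1 of each, and the Mcm10 window held 2 CCAAT matches and no E2F match.

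In CT26, 2 replication genes, Fen1 and Mcm10, were called lower with SIS ECM, and most of the others leaned the same way by small amounts. A gene is called changed where the adjusted p of edgeR's quasi-likelihood test was below 0.05. The 2 called members compare with 9.25% of 12269 genes called in either direction, 6.15% higher and 3.10% lower. Of the 34 log2 fold changes, 29 were negative, with a median of -0.09, and among all genes tested 48.5% were negative with a median of 0.01. Markers moved with the culture too. The 9 epithelial markers, most of it Krt20, summed to 45.6 to 59.0 CPM in cells alone and 69.4 to 84.9 CPM with SIS ECM. The 6 leukocyte markers, nearly all of it Cd14, summed to 9.37 to 11.7 and 13.7 to 17.8 CPM. Their part in the result was not tested.

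Fen1 encodes the flap endonuclease that trims Okazaki fragments. Its level ran from 25 to 32.8 CPM (median 27.1) in the 6 libraries of cells alone and from 18.5 to 24 CPM (median 23.2) in the 6 with SIS ECM. Every SIS ECM library lay below every library of cells alone. The mean went from 27.8 ± 3.07 to 22.3 ± 2.19 CPM (SD), a log2 fold change of -0.32 ± 0.09 (SE; adjusted p = 0.0410, edgeR). Mcm10 ran from 38.8 to 42.6 CPM (median 41.3) in cells alone and from 33.2 to 39.1 CPM (median 35.3) with SIS ECM. Only SIS ECM library 5 reached into the range of cells alone, and the log2 fold change was -0.20 ± 0.06 (adjusted p = 0.0432, edgeR). Neither call held in every omission of 1 library: Fen1 was not called without cells-alone library 3, 5 or 6 or SIS ECM library 1, 2, 3 or 5 (adjusted p 0.052 to 0.0859), and Mcm10 without cells-alone library 1, 2, 3, 4 or 6 or SIS ECM library 1, 2, 3 or 6 (0.0572 to 0.0984). Without SIS ECM library 4, 4 members were called, Prim1 among them (-0.42, adjusted p = 0.0398, edgeR). The share of all genes called in that fit is not given here.

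Among the licensing genes of CT26, 9 of 10 fold changes were negative and none was called, the lowest being Orc1 at -0.24 (adjusted p = 0.166, edgeR). Mcm2 ran from 53.6 to 68.8 CPM (median 61.8) in cells alone and from 53.3 to 78.3 CPM (median 58.2) with SIS ECM. The cultures overlapped widely, with a log2 fold change of 0.05 (95% interval -0.185 to 0.275; adjusted p = 0.847, edgeR). All 6 clamp and clamp loader genes had negative values. Pcna ran from 343 to 428 CPM in cells alone and from 266 to 457 CPM with SIS ECM, where library 4 was the highest and libraries 1 to 3 were the lowest of all 12; its log2 fold change was -0.13 (-0.39 to 0.13; adjusted p = 0.562, edgeR). Rfc5, another clamp loader subunit, did not overlap between cultures but differed by only -0.13 (adjusted p = 0.148, edgeR). All 3 nucleotide supply genes were negative as well, with Rrm1 at -0.28 (adjusted p = 0.0844, edgeR) and Rrm2, its small partner subunit, at -0.09 (adjusted p = 0.492, edgeR). Rrm2 ran from 119 to 149 CPM (median 134) in cells alone and from 119 to 136 CPM (median 125) with SIS ECM, with wide overlap.

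The polymerase genes of CT26 held the lowest and the highest value of the 34. Prim1, the catalytic primase subunit, had a log2 fold change of -0.33 ± 0.13 and did not pass (adjusted p = 0.151, edgeR). It ran from 79.5 to 97.8 CPM (median 90.2) in cells alone and from 53.1 to 93 CPM (median 72.9) with SIS ECM. The low values were those of SIS ECM libraries 1, 2 and 3 (55, 53.1 and 63.3 CPM), below all libraries of cells alone, whereas libraries 4 to 6 were at 93, 82.4 and 82.6 CPM. Pold1, the catalytic subunit of polymerase delta, had 0.21 ± 0.17 (adjusted p = 0.492, edgeR). Its 2 high values, 18.2 and 20 CPM, came from SIS ECM libraries 1 and 2, and the other 4 SIS ECM libraries (9.3 to 12.5 CPM) fell within or just below the range of cells alone (9.92 to 13.8 CPM).

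**Figure D1:**
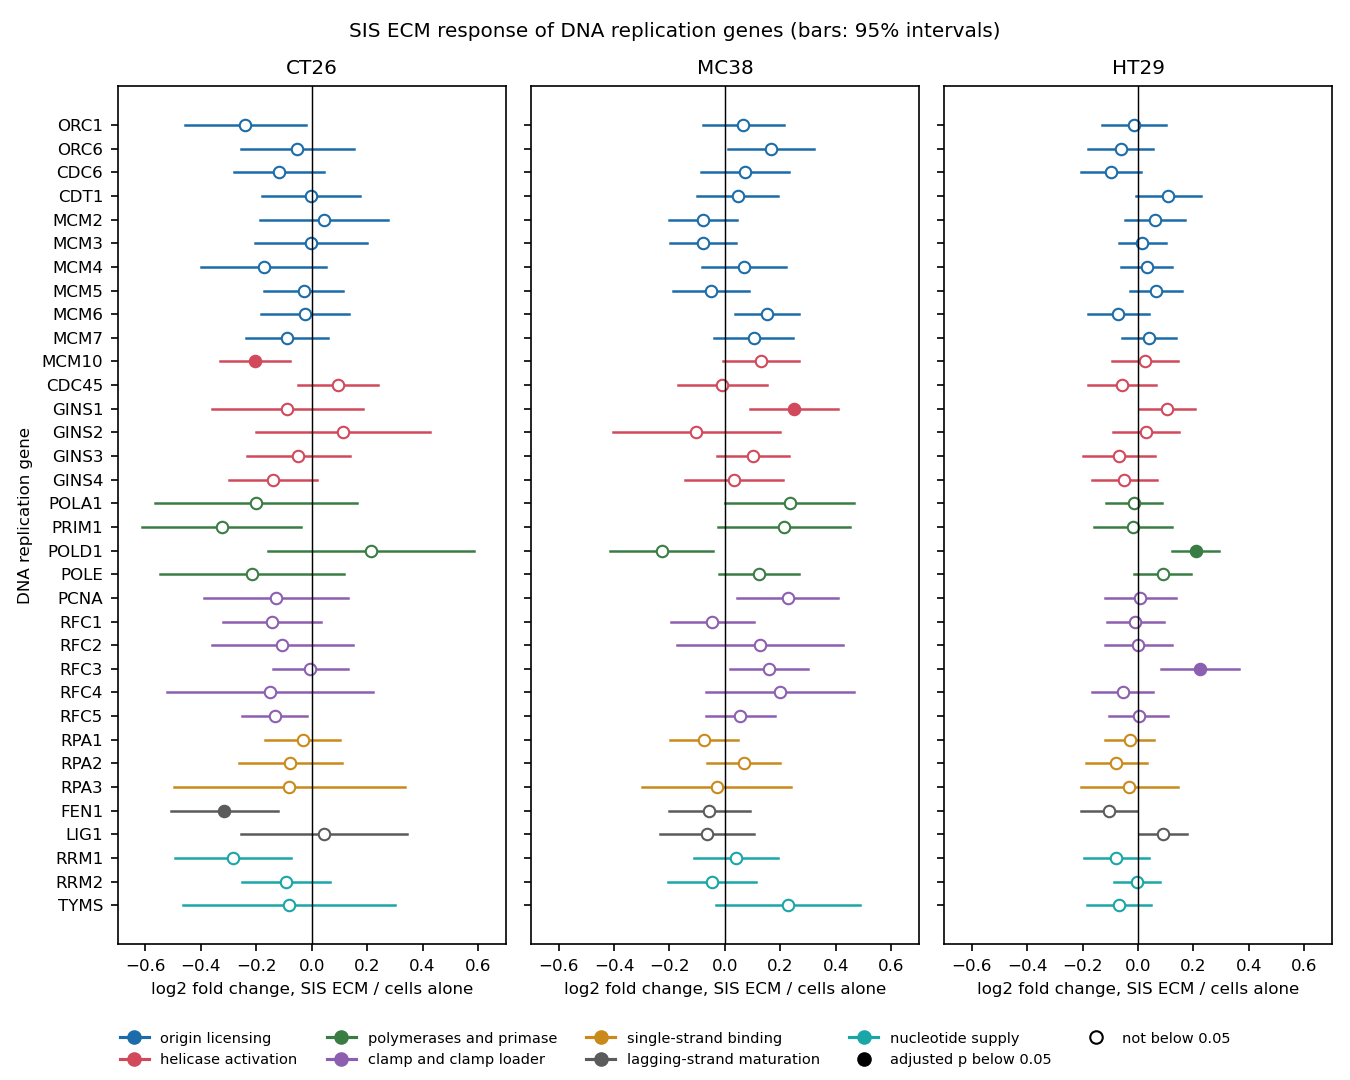
Log2 fold change of each of the 34 genes with SIS ECM (horizontal axis) in each line, with 95% intervals as bars, colours for roles and filled points for adjusted p below 0.05. In CT26, 29 of 34 points lie left of 0, in MC38 22 lie right of it, and in HT29 the intervals are narrower and 16 lie right of it.

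In MC38, 1 replication gene was called, Gins1, and it was higher with SIS ECM. This compares with 9.17% of 13146 genes called in either direction, 3.82% higher and 5.36% lower. Of the 34 log2 fold changes, 22 were positive, with a median of 0.07. Among all genes tested 48.6% were negative, with a median of 0.01. Gins1, a subunit of the GINS complex, was at 18.8, 21.3, 20.9, 24.4 and 22.6 CPM in cells-alone libraries 1 to 5 and at 25.4, 26, 26.5, 24.2 and 26.5 CPM in SIS ECM libraries 1, 3, 4, 5 and 6. In 4 of 5 SIS ECM libraries it lay above every library of cells alone, and the log2 fold change was 0.25 ± 0.07 (adjusted p = 0.0499, edgeR). The call held when cells-alone library 4 was left out (adjusted p = 0.0167) and was lost when any other library was left out (0.0634 to 0.12). With the label number as a block, over the 4 numbers present in both cultures, the fold change was 0.24 and the adjusted p 0.0963 (edgeR), and 0 of the 34 genes were called (8 at an unadjusted p below 0.05), beside 9.01% of all genes.

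No gene of the other roles passed in MC38. The medians of the licensing, polymerase, clamp and nucleotide supply genes were positive (0.07, 0.17, 0.14 and 0.04), and those of the single-strand binding and lagging-strand genes were negative (-0.03 and -0.06). Pcna was at 233, 250, 255, 316 and 306 CPM in cells alone and at 311, 320, 336, 313 and 312 CPM with SIS ECM. The SIS ECM values sat close together at the top of the range, while cells-alone libraries 1 to 3 were low and 4 and 5 were high; the log2 fold change was 0.23 (95% interval 0.04 to 0.41; adjusted p = 0.113, edgeR). Pold1 was again at an end of the list, here the lowest, at -0.23 ± 0.09 (adjusted p = 0.112, edgeR), with 18.5, 20.5, 18.6, 17.7 and 20.5 CPM in cells alone and 15.5, 14.2, 15.8, 17.8 and 18.6 CPM with SIS ECM. The cultures overlapped for Pold1 and for both fixed examples that follow. Mcm2 ran from 57.8 to 65.2 CPM in cells alone and from 54 to 61.1 CPM with SIS ECM, and Rrm2 from 112 to 124 and from 98.3 to 128 CPM. Mcm2 was at -0.08 (-0.20 to 0.04; adjusted p = 0.413, edgeR) and Rrm2 at -0.05 (-0.21 to 0.11; adjusted p = 0.727, edgeR).

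In HT29, 2 genes were called and both were higher with SIS ECM, beside 13.5% of 15207 genes called in either direction, 7.75% higher and 5.79% lower. POLD1 ran from 57.4 to 64 CPM (median 63.1) in cells alone and from 66.9 to 73.3 CPM (median 72.2) with SIS ECM. The cultures did not overlap, and the level was 1.155-fold higher with SIS ECM (log2 fold change 0.21 ± 0.04; adjusted p = 0.0021, edgeR); the call held when each library was left out in turn (adjusted p 0.00102 to 0.00855). RFC3, a clamp loader subunit, ran from 24.4 to 33.1 CPM (median 27.6) in cells alone and from 29.2 to 34.8 CPM (median 32.2) with SIS ECM. The ranges overlapped, since cells-alone library 5 was high at 33.1 CPM, and the log2 fold change was 0.22 ± 0.07 (adjusted p = 0.0330, edgeR). RFC3 was not called without cells-alone library 2, 3 or 4 or SIS ECM library 4, 5 or 6 (adjusted p 0.0535 to 0.0839).

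The remaining 32 genes of HT29 stayed within narrow bounds. FEN1 had the lowest log2 fold change, -0.10 ± 0.05 (adjusted p = 0.163, edgeR), with 123 to 137 CPM in cells alone and 109 to 127 CPM with SIS ECM. PCNA ran from 149 to 172 CPM in cells alone and from 142 to 186 CPM with SIS ECM, MCM2 from 152 to 178 and from 165 to 198 CPM, and RRM2 from 157 to 167 and from 154 to 171 CPM. All 3 overlapped between cultures. PCNA was at 0.01 (95% interval -0.12 to 0.14; adjusted p = 0.952, edgeR), MCM2 at 0.06 (-0.05 to 0.17; adjusted p = 0.488, edgeR) and RRM2 at -0.0037 (-0.09 to 0.08; adjusted p = 0.968, edgeR). Over the 34 genes 16 values were positive and 18 negative, beside 51.5% negative among all genes tested. The 95% intervals of all 34 lay between -0.20 and 0.36. The mitochondrial share was 6.51 ± 0.257% in cells alone and 5.91 ± 0.672% with SIS ECM (SD, n = 6 each), and its part in the result was not tested.

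**Figure D2:**
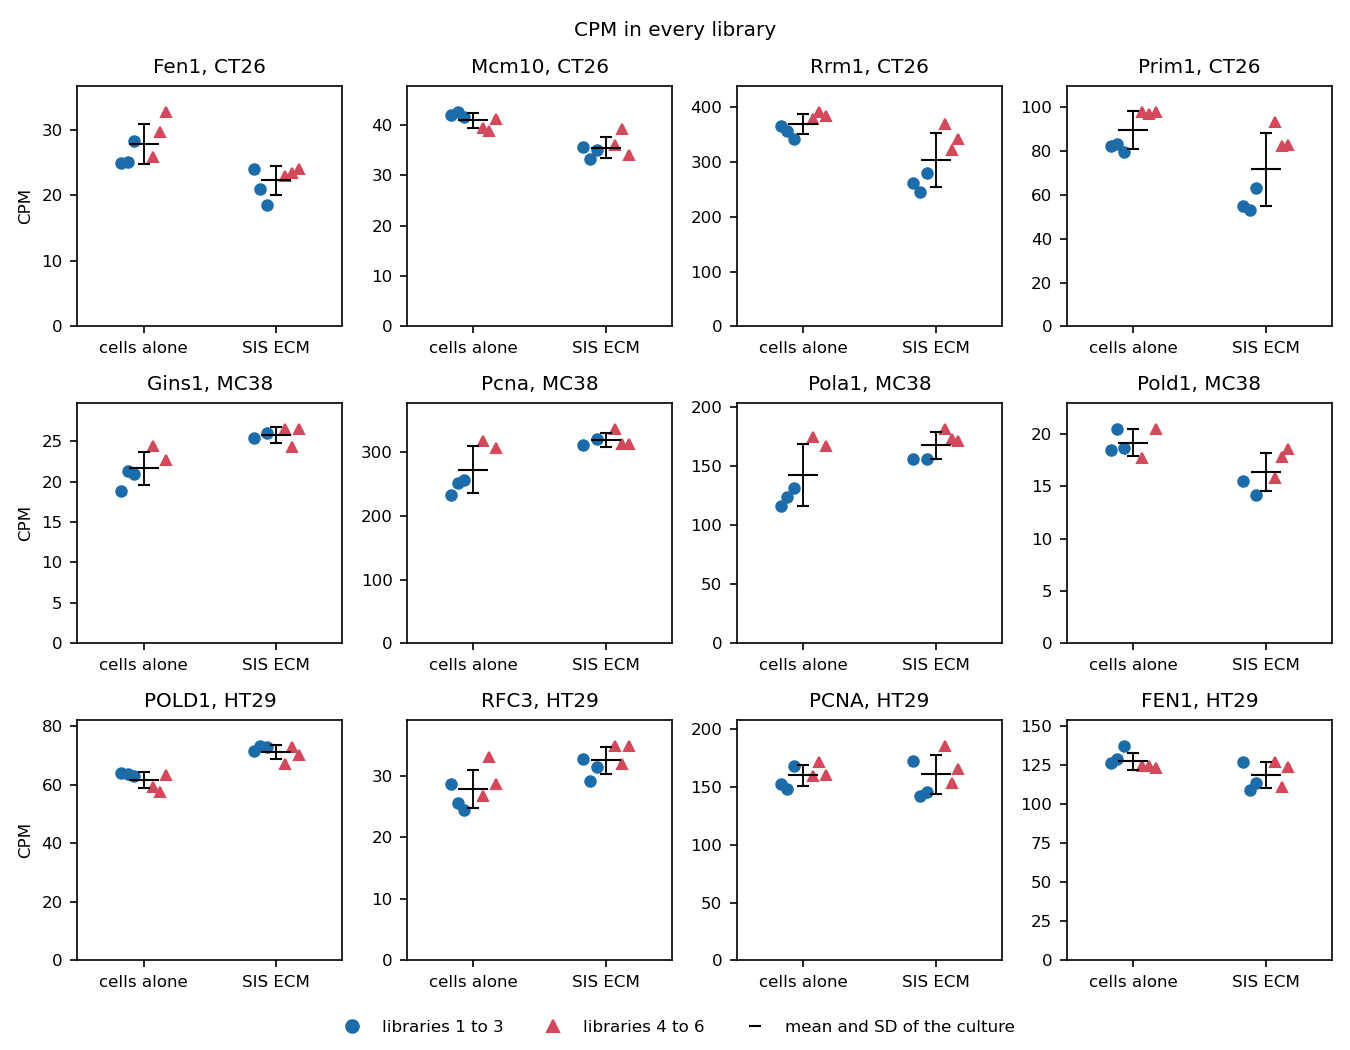
CPM of 12 gene and line pairs in each library (circles, label numbers 1 to 3; triangles, 4 to 6), with the mean and SD of each culture in black; all vertical axes start at 0. Fen1 in CT26 and POLD1 in HT29 do not overlap between cultures, Prim1 and Rrm1 in CT26 are low mainly in SIS ECM libraries 1 to 3, and Pcna and Pola1 in MC38 are low in cells-alone libraries 1 to 3.

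The lines were compared through the difference between their SIS ECM responses. Mcm10 was the 1 member whose response differed between MC38 and CT26, by 0.33 ± 0.08 on the log2 scale (adjusted p = 0.0182, edgeR), beside 8.27% of 14080 genes called in either direction, 2.87% higher and 5.40% lower in MC38. In MC38 itself Mcm10 had 0.13 (adjusted p = 0.22, edgeR), with 40, 42.3, 43.6, 43.9 and 48.2 CPM in cells alone and 47.1, 51.5, 47.6, 44.9 and 47.4 CPM with SIS ECM. Across the 34 genes, 26 of the differences were positive, and among all genes tested 53% were negative. Prim1 had the highest (0.53 ± 0.18, adjusted p = 0.0745, edgeR) and Pold1 the lowest (-0.46 ± 0.21, adjusted p = 0.187, edgeR). With a term for the number range in each line, 10 members were called, all higher in MC38, beside 26.0% of all genes. With the label number within each line as a block, 4 members were called, all higher in MC38, beside 11.8% of all genes. Leaving out CT26 SIS ECM library 4 gave 5 members, and the share of all genes called in that fit is not given here. Between HT29 and the mean of both mouse lines, 0 of 34 responses differed (5.44% of 12272 genes tested by edgeR, 2.58% higher and 2.86% lower). By edgeR 0 members had an unadjusted p below 0.05, and the 95% intervals of these differences reached from -0.48 to 0.48. The responses of CT26 and MC38 leaned opposite ways (medians of the 34 genes -0.09 and 0.07) and offset each other in that mean. The contrast therefore does not compare HT29 with either mouse line alone.

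The mouse responses were also fitted within each of the 2 number ranges. In CT26 libraries 1 to 3 (3 per culture), 10 of 34 genes were called, all lower with SIS ECM, beside 20.0% of 12405 genes in either direction and 10.1% lower. They came from most steps of replication: Prim1, Pola1 and Pole (the catalytic subunit of polymerase epsilon) among the polymerases, Pcna and the clamp loader subunit Rfc4, Rpa3, the helicase genes Mcm4 and Mcm10, and Rrm1 and Tyms (thymidylate synthase). Prim1 had the largest decrease, from 82.3, 83.4 and 79.5 CPM to 55, 53.1 and 63.3 CPM, a log2 fold change of -0.53 ± 0.07 (adjusted p = 0.00252, edgeR). Pola1 went from 157, 147 and 134 to 106, 94.6 and 122 CPM (-0.45 ± 0.09; adjusted p = 0.0128, edgeR), and Rrm1 from 365, 357 and 341 to 261, 244 and 280 CPM (-0.45 ± 0.07; adjusted p = 0.00347, edgeR). For all 3 genes every SIS ECM library was below every library of cells alone, and the share of all genes separated in this way was not counted. The other 7 called genes had values between -0.39 (Rfc4) and -0.23 (Pole). In the same libraries the mitochondrial share was 4.82 to 5.01% in cells alone and 3.72 to 4.23% with SIS ECM, and its part in the result was not tested.

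In CT26 libraries 4 to 6, 4 genes were called, also all lower, beside 19.0% of 12300 genes in either direction and 7.84% lower. Fen1 went from 25.9, 29.6 and 32.8 to 22.9, 23.4 and 24 CPM (-0.33 ± 0.08; adjusted p = 0.00785, edgeR). Pole went from 66.6, 62.2 and 65.5 to 56.7, 57.3 and 54.8 CPM (-0.20; adjusted p = 0.0112, edgeR), and Prim1 (-0.18) and Rrm1 (-0.16) were also called (adjusted p = 0.0179 and 0.0306, edgeR). Thus Prim1, Pole and Rrm1 were called lower in both ranges. Pcna, called lower in libraries 1 to 3 at -0.31, was at 0.0048 (95% interval -0.10 to 0.11; adjusted p = 0.959, edgeR) in libraries 4 to 6. The mitochondrial share in these libraries was 7.87 to 8.29% in cells alone and 7.66 to 8.59% with SIS ECM.

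With a term for the number range over all 12 CT26 libraries, 11 genes were called, all lower, beside 28.9% of all genes in either direction and 13.7% lower: Prim1, Fen1, Rrm1, Orc1, Pola1, Pole, Mcm10, Mcm4, Gins4, Rfc1 and Rfc5. With the label number as a block, 5 were called, Prim1, Pole, Rrm1, Fen1 and Mcm10, beside 18.6% of all genes. A test of whether the response differed between ranges called 0 members in CT26 (0.383% of 12269 genes by edgeR; 9 members at an unadjusted p below 0.05), so the ranges are not shown to differ gene by gene. Without SIS ECM library 3, which stood apart from SIS ECM libraries 1 and 2 for Pold1, Mcm2 and Mcm7, that test called 13 members. That was the only 1 of 12 omissions to call any member. The share of all genes called in that fit is not given here.

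In MC38 libraries 1 to 3, which held 3 libraries of cells alone and 2 with SIS ECM, 16 genes were called higher and 1 lower, beside 39.7% of 13310 genes in either direction, 19.3% higher and 20.4% lower. The higher genes again covered most steps: Orc6, Cdc6, Mcm4, Mcm6 and Mcm7 for licensing, Mcm10, Gins1 and Gins4 for helicase activation, Pola1, Prim1 and Pole, then Pcna, Rfc3 and Rfc4, and Rrm1 and Tyms. Pcna went from 233, 250 and 255 to 311 and 320 CPM (0.35 ± 0.05; adjusted p = 6.47e-06, edgeR), and Pola1 from 116, 124 and 131 to 156 and 156 CPM (0.33 ± 0.05; adjusted p = 3.5e-05, edgeR). Gins1 (0.33) and Orc6 (0.28) were next. All SIS ECM values of Pcna and Pola1 lay above all values of cells alone, and the share of all genes separated in this way was not counted. Pold1 was the 1 gene called lower, from 18.5, 20.5 and 18.6 to 15.5 and 14.2 CPM (-0.38 ± 0.09; adjusted p = 0.00125, edgeR). The mitochondrial share in these libraries was 3.42 to 3.75% in cells alone and 4.92 to 4.94% with SIS ECM, and its part in the result was not tested.

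In MC38 libraries 4 to 6 (2 of cells alone and 3 with SIS ECM), only Fen1 was called, and it was lower, beside 17.1% of 13532 genes in either direction, 8.65% higher and 8.48% lower. It went from 57.8 and 63.6 to 55.2, 53.5 and 50.4 CPM (-0.20 ± 0.07; adjusted p = 0.0464, edgeR). Pcna was at 316 and 306 CPM without and 336, 313 and 312 CPM with SIS ECM (0.04; adjusted p = 0.671, edgeR). With a term for the number range over all 10 libraries, Gins1, Pcna, Pola1, Pole, Prim1 and Mcm6 were called higher and Pold1 and Gins2 lower, beside 24.7% of all genes in either direction.

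The same test of the difference between ranges was run in MC38. There, 9 responses were lower in libraries 4 to 6 than in 1 to 3 and none was higher, beside 21.9% of 13146 genes in either direction, 10.4% higher and 11.5% lower. In libraries 1 to 3 Gins4 was at 33.9, 33.7 and 35.8 CPM in cells alone and 37.6 and 41.8 CPM with SIS ECM, and in libraries 4 to 6 at 41.7 and 41.8 against 38.8, 34.2 and 38.8 CPM, so the order of the cultures was opposite. Its response differed by -0.37 ± 0.10 (adjusted p = 0.0116, edgeR), Pcna by -0.31 ± 0.07 (adjusted p = 0.00501, edgeR) and Pola1 by -0.29 ± 0.08 (adjusted p = 0.00847, edgeR), followed by Orc6, Rfc4, Rrm1, Fen1, Rfc3 and Mcm4 at -0.28 to -0.21. Over the 34 genes 32 differences were negative, beside 50.2% of all genes tested. Leaving out 1 library gave 2 to 13 members: 2 without SIS ECM library 3 or 5, 3 without cells-alone library 2, 4 without SIS ECM library 6 and 5 without cells-alone library 1 or 5. The shares of all genes called in those fits are not given here. With the label number as a block, over 4 numbers, 0 members were called (edgeR; Gins4 at -0.38, adjusted p = 0.0539; Pcna at -0.31, adjusted p = 0.0617; 8 members at an unadjusted p below 0.05), beside 7.56% of all genes.

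**Figure D3:**
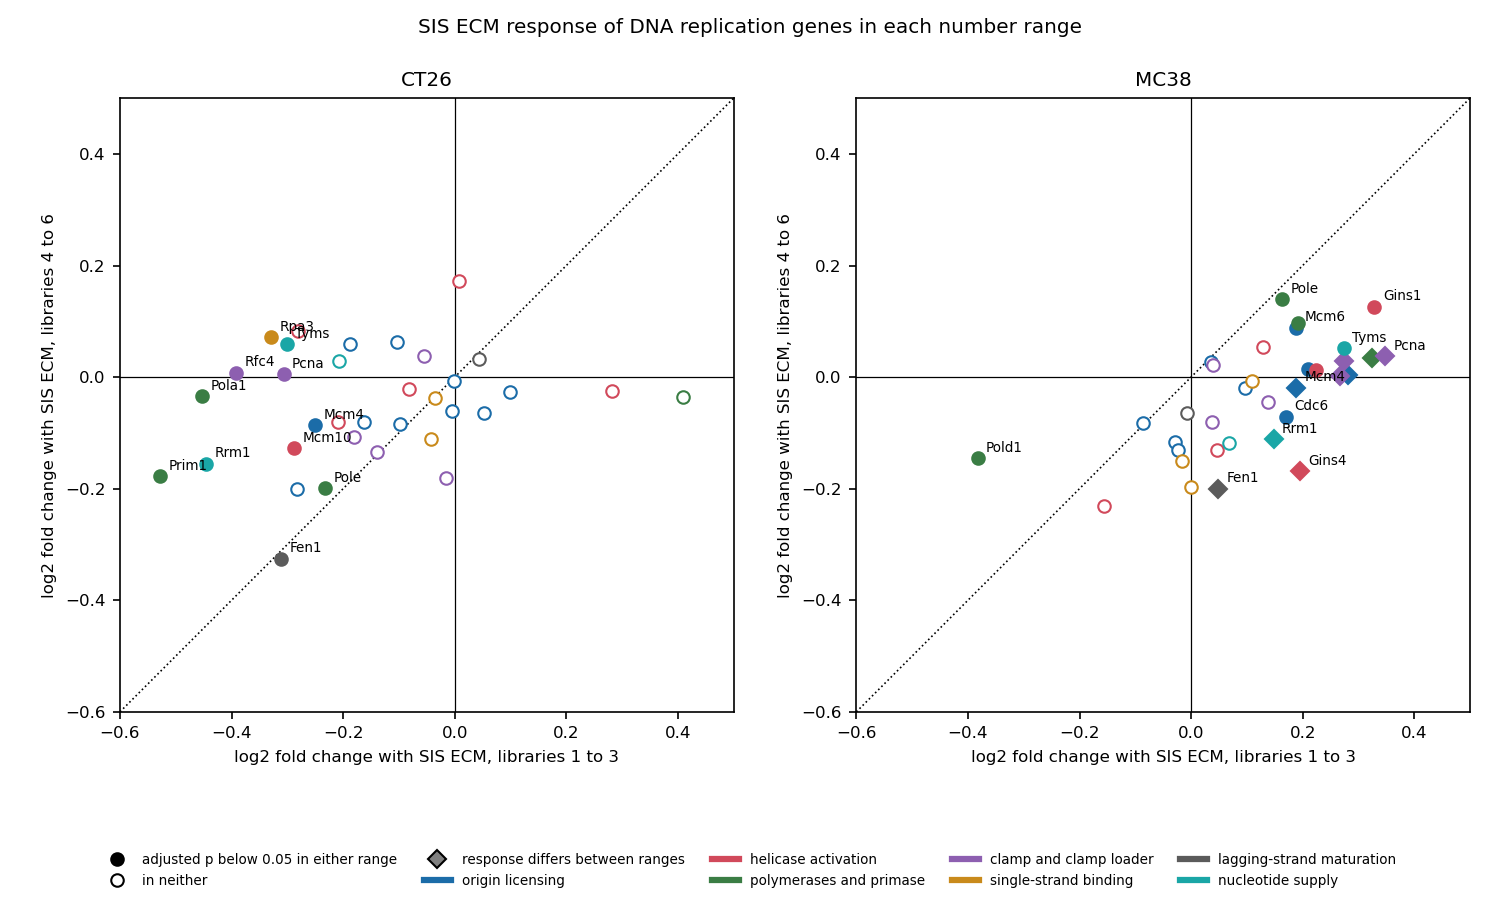
Log2 fold change with SIS ECM in libraries 4 to 6 (vertical) against libraries 1 to 3 (horizontal) for each of the 34 genes in CT26 and MC38, with filled symbols called in either range, diamonds where the ranges differed, colours for roles and a dotted line of equality. In CT26 the called genes lie left of 0, with Prim1 farthest, and in MC38 most lie right of 0 and below the line of equality.

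The label number also went with the level of these genes apart from the matrix. In CT26, 24 of 34 genes differed between libraries 4 to 6 and 1 to 3 after allowing for culture (15 higher and 9 lower in libraries 4 to 6), beside 52.7% of all genes. Rpa3 was higher by 0.68 ± 0.07 (adjusted p = 1.33e-06, edgeR): in cells alone it was at 57.7, 62.8 and 60.1 CPM in libraries 1 to 3 and at 85.7, 83.1 and 83.8 CPM in 4 to 6, and with SIS ECM at 47.5, 44.6 and 52.7 CPM and at 95.2, 85.7 and 84 CPM. Tyms (0.61) and Rfc4 (0.59) were higher too, Rfc4 going from 32.7, 33.9 and 34 to 44.4, 43.8 and 44.1 CPM in cells alone, while Pole was lower by -0.56 ± 0.04 (adjusted p = 4.79e-08, edgeR), at 101, 93.6 and 93.3 against 66.6, 62.2 and 65.5 CPM in cells alone. The ranges did not overlap within either culture for Rpa3 or Pole.

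In MC38, 14 genes differed between the ranges (9 higher and 5 lower in libraries 4 to 6), beside 40.8% of all genes, 19.9% higher and 20.9% lower. Rfc2, a clamp loader subunit, was higher by 0.46 ± 0.06 (adjusted p = 3.05e-05, edgeR), at 31.6, 28.1 and 31.1 against 38.9 and 44.7 CPM in cells alone and at 29.8 and 32.7 against 41.6, 45.2 and 41.2 CPM with SIS ECM. Gins2 was at 15.2, 15.9 and 15.7 against 20.3 and 23.6 CPM in cells alone and at 14.2 and 14 against 18.2, 19 and 19.2 CPM with SIS ECM. Gins2 (0.46), Rpa3 (0.39) and Rfc4 (0.38) followed. The 9 higher genes in MC38 were Rfc2, Gins2, Rpa3, Rfc4, Tyms, Prim1, Pola1, Pcna and Cdc45, and the 5 lower were Lig1, Pole, Rfc1, Rrm2 and Mcm4. In HT29, 0 of 15207 genes differed between the same label numbers by edgeR (0% of all genes; 1 member at an unadjusted p below 0.05).

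**Figure D4:**
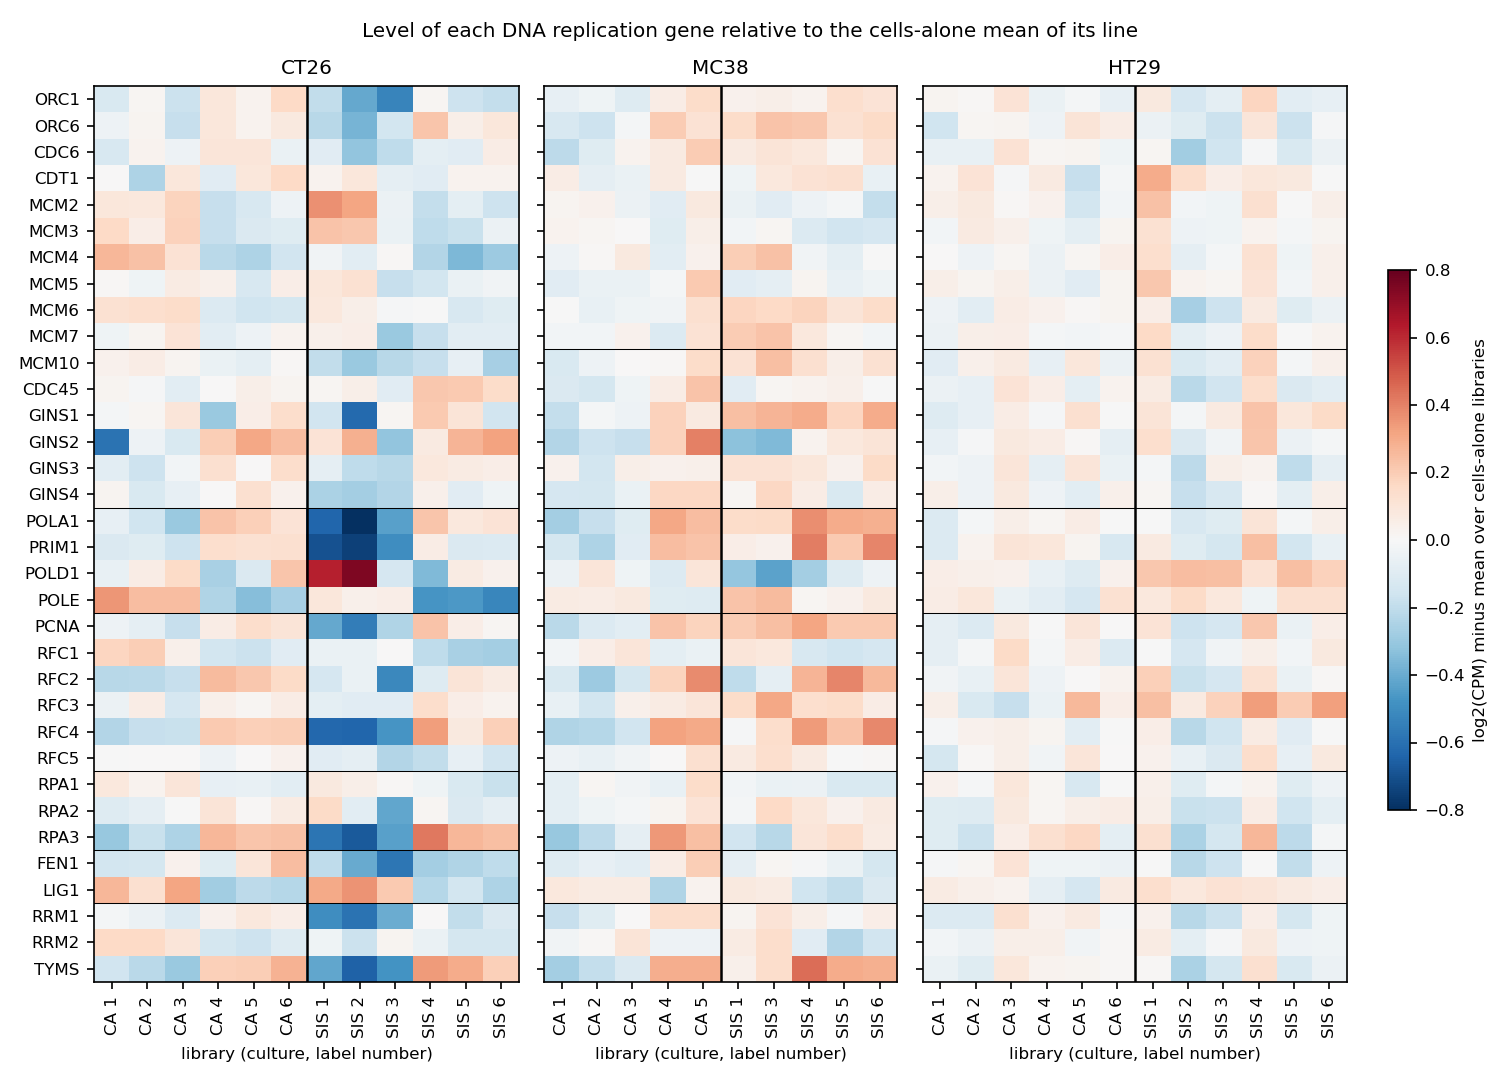
Heat map of log2 CPM minus the mean over the cells-alone libraries of the same line, with one row per gene grouped by role and one column per library (CA, cells alone; SIS, with SIS ECM), from blue (lower) to red (higher). In CT26, SIS ECM libraries 1 to 3 are lowest for Pola1, Prim1, Rfc4 and Rpa3, and in MC38 cells-alone libraries 1 to 3 are lower than 4 and 5 for Pola1, Prim1, Pcna and Rfc4.

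Base composition was a further property in which the members differed. The GC content of the longest coding transcript ran from 40.4% for Rpa3 and 41.5% for Pola1 to 58.8% for Cdt1 and 60.7% for Pold1. The middle 120 coding bases of Pola1 and Pold1 are shown, with G and C in capitals, because these genes lie near opposite ends of that range and of the response in libraries 1 to 3.
Pola1: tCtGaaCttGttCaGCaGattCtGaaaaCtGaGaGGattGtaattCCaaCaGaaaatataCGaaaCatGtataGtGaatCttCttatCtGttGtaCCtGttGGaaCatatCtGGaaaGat
Pold1: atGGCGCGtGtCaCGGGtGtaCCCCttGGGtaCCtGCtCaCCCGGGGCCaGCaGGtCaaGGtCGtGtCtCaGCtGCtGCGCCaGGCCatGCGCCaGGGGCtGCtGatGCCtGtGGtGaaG
The Pola1 stretch, coding positions 2137 to 2256 of 4395 on chromosome X, held 41 G or C bases (34.2%). The Pold1 stretch, positions 1597 to 1716 of 3315 on chromosome 7, held 80 (66.7%).

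Across the 34 genes, the response in CT26 libraries 1 to 3 went with GC content (Spearman's rho 0.766, Pearson's r 0.797), so that genes of low GC content, such as Pola1 and Prim1, had the lowest values and Pold1 the highest. Over 10918 genes with a coding transcript the rho was 0.451. In MC38 libraries 1 to 3 the order was the opposite, with a rho of -0.574 for the 34 genes and -0.554 for 11664 genes. In libraries 4 to 6 the rho for the 34 genes was -0.196 in CT26 and -0.311 in MC38, beside -0.0955 and -0.149 over all genes with a coding transcript. For the difference in level between libraries 4 to 6 and 1 to 3, apart from the matrix, the rho was -0.514 for the 34 genes and -0.345 for 10800 genes in CT26, and -0.299 and -0.0547 (11539 genes) in MC38. These are correlations across genes measured in the same libraries, which are not independent replicates. Their part in the responses was not tested beyond a fit with an offset for GC content, chosen after seeing the data. That fit called 3 members lower in CT26 (17.7% of all genes) and 0 in MC38 (8.33% of all genes; edgeR; Gins1 at 0.22, adjusted p = 0.0806). With the offset and a term for the number range it called 11 members lower in CT26 (44.2% of all genes), and 6 higher and 1 lower in MC38 (24.3%).

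**Figure D5:**
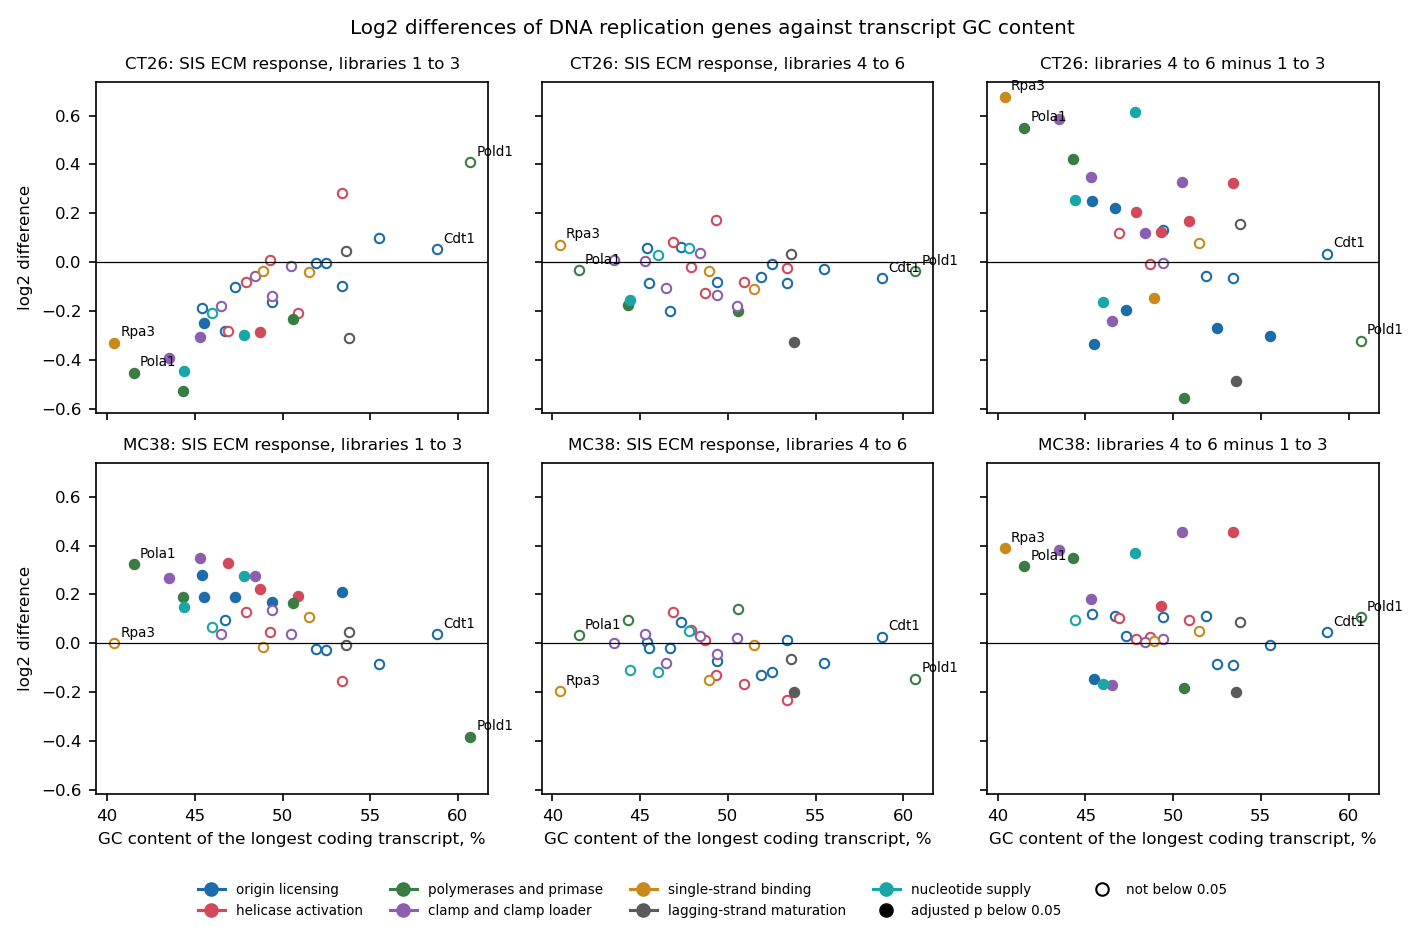
Log2 difference of each of the 34 genes (vertical) against the GC content of its longest coding transcript in percent (horizontal), for the SIS ECM response in libraries 1 to 3 and 4 to 6 and for the difference between ranges, in CT26 (top) and MC38 (bottom), with filled points for adjusted p below 0.05. In libraries 1 to 3 the points climb from Pola1 and Rpa3 to Pold1 in CT26 and descend in MC38.

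Genes that work beside the 34 were followed in lists of related factors. In CT26, 6 of 29 other replication factors fell with SIS ECM and none rose, beside 3.10% lower and 6.15% higher among all genes, the shares against which the other CT26 lists stand too. Topbp1, a scaffold of origin firing and checkpoint signalling, went from 254 ± 19.1 to 199 ± 8.81 CPM (-0.35 ± 0.06; adjusted p = 0.00298, edgeR), Dna2, a nuclease that trims long flaps, fell by 0.38 and Atad5, which unloads PCNA, fell by 0.32 on the log2 scale. Of 22 genes that control replication, 3 fell, E2f8 and E2f3, members of the E2F family, and Dbf4, the activator of the CDC7 kinase (-0.27, -0.28 and -0.32). The median log2 fold change was -0.12 for the first list and -0.19 for the second, beside 0.01 for all genes. Hells and Nasp, which act on chromatin at new DNA, also fell (-0.30 and -0.37), as did 4 of 24 mitotic genes, among them the spindle motors Kif11 (-0.41) and Cenpe (-0.41). A term for the number range raised these counts. With it 11 of 29 other factors, 12 of 22 control genes, 4 of 9 chromatin genes and 14 of 24 mitotic genes were called, all lower, beside 13.7% of all genes lower.

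Of 11 other nucleotide supply genes in CT26, 2 rose. A term for the number range also called 4 others lower, beside 13.7% of all genes lower. The 2 that rose were called in both fits. They were Rrm2b, the p53-inducible partner of Rrm1 (59.1 ± 3.50 to 78.3 ± 9.35 CPM; 0.41 ± 0.08; adjusted p = 0.00551, edgeR), and Samhd1, an enzyme that breaks down deoxynucleotides (108 ± 7.90 to 134 ± 4.13 CPM; 0.32 ± 0.06; adjusted p = 0.00357, edgeR). SAMHD1 also rose in HT29, from 31.2 ± 2.65 to 53.9 ± 5.15 CPM (0.79 ± 0.07; adjusted p = 7.2e-07, edgeR). DCK and DUT, which salvage deoxycytidine and remove dUTP, rose there by 0.16 and 0.13, so 3 of 12 members of that list were higher in HT29, beside 7.75% of all genes.

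In MC38, Wdhd1 (0.29) and Dscc1 (0.35), factors of the replication fork and of cohesion at it, rose, and Pold2, the second subunit of polymerase delta, fell (-0.32) among the 29 other factors. With a term for the number range, 8 of these 29 were called higher and 4 lower, beside 12.2% and 12.5% of all genes. Without that term, 0 of 22 control, 11 other nucleotide supply, 9 chromatin and 24 mitotic genes were called, beside 9.17% of all genes. With it, 5 control genes were called higher and 0 lower, and 1 mitotic gene higher and 3 lower. The nucleotide supply and chromatin lists then each gave 1 higher and 1 lower. The CDK inhibitors, which hold back entry into S phase, gave 3 of 6 tested genes lower with SIS ECM, beside 5.36% of all genes. With the range term 5 of the 6 were lower, beside 12.5%. Cdkn1a (p21) went from 55.5 ± 10.5 to 35.0 ± 1.78 CPM (-0.66 ± 0.11; adjusted p = 0.00423, edgeR), Cdkn2d changed by -0.56 and Cdkn1b by -0.33. The summed level of 9 fibroblast markers was 3621 to 4563 CPM in cells alone and 2681 to 4242 CPM with SIS ECM in MC38, and its part in these results was not tested. In HT29 the same list gave CDKN1C (0.65) and CDKN1B (0.18) higher and CDKN1A (-0.20) lower, of 7 tested (7.75% of all genes higher and 5.79% lower), and in CT26 none of 4 tested (Cdkn1b at 0.20, unadjusted p = 0.0214, adjusted p = 0.126, edgeR). The genes called in HT29 also included RB1 (0.14), UHRF1 (0.17) and CHAF1A (0.16) higher and POLD4 (-0.23) and E2F8 (-0.16) lower.

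Within the authors' deposited table of SIS ECM against cells alone, 4 members had an adjusted p below 0.05 in CT26 (Fen1, Mcm10, Orc1 and Rrm1, all lower), beside 11.8% of 13101 genes. In MC38 the authors' deposited table gave 0 members, beside 8.32%, and in HT29 POLD1 and RFC3, both higher, beside 16.0% of 13522 genes. For the Hallmark set of E2F targets, which holds 21 of the 34 genes, the authors' deposited table listed a normalised enrichment score of -2.42 in CT26 (the authors' adjusted p = 0.00241), 0.966 in MC38 (0.628) and 0.660 in HT29 (0.997). Of those 21, the authors' deposited table put 8 in the leading edge in CT26 (117 of 192 set genes), 9 in MC38 (66 of 192) and 4 in HT29 (29 of 196). That set and these tests share the libraries described above, so they are no separate support.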

How the data were processed

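The 34 genes, the related lists and the tests were chosen with earlier results of these data known. The submitters' processing notes name RSEM 1.3.1, STAR 2.7.0f, cutadapt 1.18 and limma, and as builds hg38 and mm10, without roles; the strand setting used in counting was not stated there. The authors deposited expected counts per gene, which were rounded. The authors also deposited a table of log2 fold changes with p-values and t scores, and normalised enrichment scores; 34 per-sample columns in it were not used. No library repeated another in 80 pairs within groups (chi-square per degree of freedom 1.89 to 137).

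Genes were tested in each line with edgeR 4.0.16 (R 4.3.3), by the two-sided quasi-likelihood F test with TMM factors and filterByExpr (minimum count 10), and p-values were adjusted by Benjamini-Hochberg over all genes tested. Standard errors are the log2 fold change divided by the square root of F, and intervals are 95%. Overlap between groups of libraries was examined for members only, and the share of all genes without overlap was not counted. Differences between responses were interactions; HT29 and mouse were joined by 16667 shared symbols. Members named by rule were, per line, up to 8 called ones and those with the highest and lowest fold change, the 4 with the largest difference between number ranges, those called in interactions, PCNA, MCM2 and RRM2, and up to 3 genes per related list; Orc1, Rfc5, Rrm1, Pola1 and the members named within a number range were added after their values were seen. Same-numbered libraries of the 2 cultures deviated together in CT26 (correlations 0.222 to 0.487 in 6 pairs) and MC38 (0.190 to 0.322 in 4 pairs), and not in HT29 (-0.0957 to 0.0649). In CT26 and MC38 blocked values therefore stand beside results that they change. The same number was the best partner in 0 of 6 CT26 pairs and 1 of 4 MC38 pairs, so the correlations do not single out the number. Alternatives used RLE factors, DESeq2 1.42.0, limma 3.58.1 (voom), no filter, number ranges and leaving out each library. Promoters are from RefSeq (GRCm38.p6), and transcripts and coordinates from GENCODE vM21 (GRCm38). The pipeline was tested on simulated data.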

Additional observations from a re-analysis of the deposited data

Results flagged for a closer look

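The response to SIS ECM of 10 genes differed between groups in a test of the difference itself. Between MC38 libraries 4 to 6 and 1 to 3, the difference in log2 fold change was -0.37 for Gins4, -0.31 for Pcna, -0.29 for Pola1, -0.28 for Orc6, -0.27 for Rfc4, -0.26 for Rrm1, -0.25 for Fen1, -0.25 for Rfc3 and -0.21 for Mcm4. With the label number as a block none of these 9 was called (edgeR; adjusted p from 0.0539 for Gins4 to 0.263 for Rfc3). Of 10 omissions of 1 library, the call was lost in 9 for Rfc4, 8 for Mcm4, 7 for Fen1, 6 for Rfc3, 4 for Orc6, 3 for Rrm1, 2 for Gins4 and 0 for Pcna and Pola1. Between MC38 and CT26, Mcm10 differed by 0.33, and it was called in all 22 omissions of 1 library (adjusted p 0.00935 to 0.0422, edgeR). No library stood far from the others of its group in the 52 groups of named genes examined. The rule set the gap to the nearest library against the spread of the whole group. Mouse groups pooled both number ranges, which can widen that spread. A library apart from others of its number range could therefore be missed, such as CT26 SIS ECM library 3 for Pold1.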

How the results depend on the processing

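In CT26, the 2 called genes became 4 with DESeq2, 0 without the filter on low counts, 5 with the replicate block, 11 with a term for number range, 10 in libraries 1 to 3 and 4 in libraries 4 to 6, and 0 to 4 when each library was left out in turn. With the offset for GC content they became 11 with either the range term or the replicate block. In MC38, the 1 called gene became 0 with RLE factors (Gins1 adjusted p = 0.0503), 2 with DESeq2, 0 without the filter, 0 with the replicate block, 8 with the range term, 17 in libraries 1 to 3 and 0 to 3 in omissions. With the GC offset it became 0, 7 with the range term and 0 with the block. In HT29, 2 genes were called under every alternative (the replicate block, whose numbers do not pair there, included) except 1 to 2 in omissions. The share of all genes called moved between fits too. In CT26 it was 9.25% in the main fit, 28.9% with the range term, and 20.0% and 19.0% within the ranges. In MC38 it was 9.17% in the main fit, 24.7% with the range term and 39.7% in libraries 1 to 3. Shares for RLE factors, DESeq2, no filter, omissions and the GC offset with the block are not given here.

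The 24 genes that differed between number ranges in CT26 became 14 in SIS ECM libraries only. Responses differing between MC38 and CT26 (1 gene) became 0 without the filter, 10 with the range term, 4 with the replicate block and 1 to 5 in omissions. Those differing between ranges became 2 without the filter in CT26 (0 to 13 in omissions), and in MC38 0 with the replicate block (2 to 13 in omissions). The shares of all genes called in SIS ECM libraries only, without the filter and in omissions are not given here. The cause of these shifts was not tested.

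Of genes not called, several changed sign. In CT26 libraries 4 to 6, Pold1 was at -0.0364, Pcna at 0.00476, Mcm2 at -0.0269 and Rrm2 at 0.0295, and Mcm2 was at -0.0203, -0.0194 and -0.0211 under the GC offset alone, with the range term and with the block. In MC38, Rrm2 was at 0.0676 in libraries 1 to 3 and Mcm2 at 0.0196, 0.0175 and 0.0525 in the same GC offset fits. In omissions, Mcm2 in CT26 ran from -0.027 to 0.0817, and PCNA and RRM2 in HT29 from -0.0366 to 0.0411 and from -0.0205 to 0.0109. Depth limits genes of low level most, such as Orc1 in CT26, whose counts per library ran from 113 to 193.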
